A study of Mus musculus with 20 samples.

Results

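Oligodendrocyte lineage and myelin genes were followed in mRNA from the cortex and hippocampus of 10 mice at postnatal day 7. The list held 34 genes, chosen by their symbols to cover precursors, differentiating cells and myelin, and all 34 were found among the 47729 genes counted in each library. WT mice and Ube3aOE mice, both on C57Bl/6J and of both labelled sexes, gave 5 animals per genotype, and each animal gave 1 library per tissue, for 20 libraries in all. The Ube3aOE mice carried an inserted bacterial artificial chromosome that holds Ube3a with its flanking DNA and loxP sites, beside their intact endogenous alleles, and the labels list no treatment for either genotype. The study calls these mice Ube3a+2 and characterized mainly 1 line, and the labels do not say from which line the sequenced pups came. The whole dissected cortex or hippocampus was used, so a lower level could be fewer cells of a type or less RNA per cell, which bulk libraries cannot tell apart.

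Oligodendrocytes are the myelinating cells of the brain and arise from precursors that divide and migrate before they differentiate. Precursors are driven by platelet-derived growth factor through the receptor encoded by Pdgfra, commit through transcription factors such as Olig2 and Sox10, pass through a premyelinating step marked by Gpr17, Bcas1 and Enpp6, and then switch on the genes of compact myelin under Myrf. In the mouse forebrain this switch begins in the first weeks after birth and reaches different regions at different times.

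A library held between 14191093 and 16752326 reads counted on genes. Ube3a, the targeted gene, ran from 53.5 to 69.7 CPM (counts of a gene scaled to the size of its library) in WT cortex and from 129 to 182 CPM in Ube3aOE cortex, and the genotype groups were as clearly apart in hippocampus (57.3 to 77.0 against 142 to 194 CPM). Markers of neighbouring regions stood at over 1.5 times the hippocampal median in 5 hippocampus libraries. The summed CPM of 5 thalamic markers was 276 in WT mouse 4, 338 in Ube3aOE mouse 7 and 627 in Ube3aOE mouse 10, against 129 to 177 in the rest, that of 5 striatal markers was 497 in Ube3aOE mouse 9 against 40.2 to 64.4, and that of 5 neocortical markers was 363 in WT mouse 2 against 146 to 220. Choroid plexus markers reached 1951 CPM in the hippocampus of Ube3aOE mouse 7 and 347 CPM in that of Ube3aOE mouse 9. In cortex, the library of WT mouse 2 had the lowest share of reads on genes, 69.7%. The counts of genes on the sex chromosomes went against the labelled sex in 2 WT mice. The 4 Schwann cell markers, which would mark peripheral nerve, summed to 2.46 to 4.65 CPM. Of these, 2 passed the filter on low counts, and Pmp2 was under 0.1 CPM in every library.

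Levels were compared between genes per length, as CPM divided by the length of the merged exons in kilobases (RPKM). Olig1, a basic helix-loop-helix factor of the lineage, was the highest of the 34 genes in both tissues at 55.9 ± 9.00 RPKM in cortex and 67.2 ± 8.06 RPKM in hippocampus (SD, n = 10 each). It was followed by Qdpr, which recycles the cofactor tetrahydrobiopterin and is used by many cell types, at 39.8 ± 2.09 and 42.0 ± 2.88 RPKM. Genes of early and premyelinating stages varied in level. Gpr17 stood at 13.7 ± 3.64 and 17.3 ± 6.54 RPKM, Olig2 at 12.1 ± 1.08 and 16.9 ± 1.94 RPKM, and Pdgfra at 10.4 ± 1.07 and 12.7 ± 1.19 RPKM, whereas the means of Cspg4 were 1.41 and 1.53 RPKM, those of Nkx2-2 1.19 and 1.66 RPKM, and those of Enpp6 0.355 and 0.548 RPKM. Cnp, a phosphodiesterase of the non-compact myelin cytoplasm, was the highest of the structural genes at 17.8 ± 3.67 and 18.5 ± 3.78 RPKM. Mbp, myelin basic protein, stood at 11.2 ± 2.24 and 11.3 ± 2.66 RPKM. The Mbp locus also gives Golli transcripts, which neurons use too and which a count per gene does not set apart. These ranks depend on the merged lengths, 8469 bases for Mbp and 3639 for Cnp. In CPM, Mbp was above Cnp, at 94.9 against 64.6 in cortex and 95.3 against 67.3 in hippocampus. Nfasc (161 and 181 CPM) and Cntn2 (125 and 198 CPM) were likewise above Olig1 (121 and 145 CPM).

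Among the low genes, Mag, an adhesion protein of the innermost myelin wrap, was at 0.853 ± 0.429 RPKM in cortex and 1.11 ± 0.721 RPKM in hippocampus, with 24 to 192 reads per library. Mobp, a protein of compact myelin, was at 0.251 ± 0.249 and 0.107 ± 0.161 RPKM. Mog, found on the outermost wrap, had 0 to 14 reads per library, Opalin, a membrane protein of mature cells, had 0 to 6, and Nkx6-2, a homeodomain factor of maturing cells, had 0 to 5. Opalin was at 0 in 10 of the 20 libraries and Nkx6-2 in 12, and these 3 genes were too low for the fit in any comparison. Exact two-sided sign-flip tests over the 10 mice gave p = 0.361 for Mog, 0.125 for Opalin and 0.812 for Nkx6-2 between the tissues. In the plot of levels the lineage factors run from Olig1 to Nkx6-2, and the structural group runs from Cnp to Opalin, which was at or below 0.126 RPKM in every library.

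**Figure D1:**
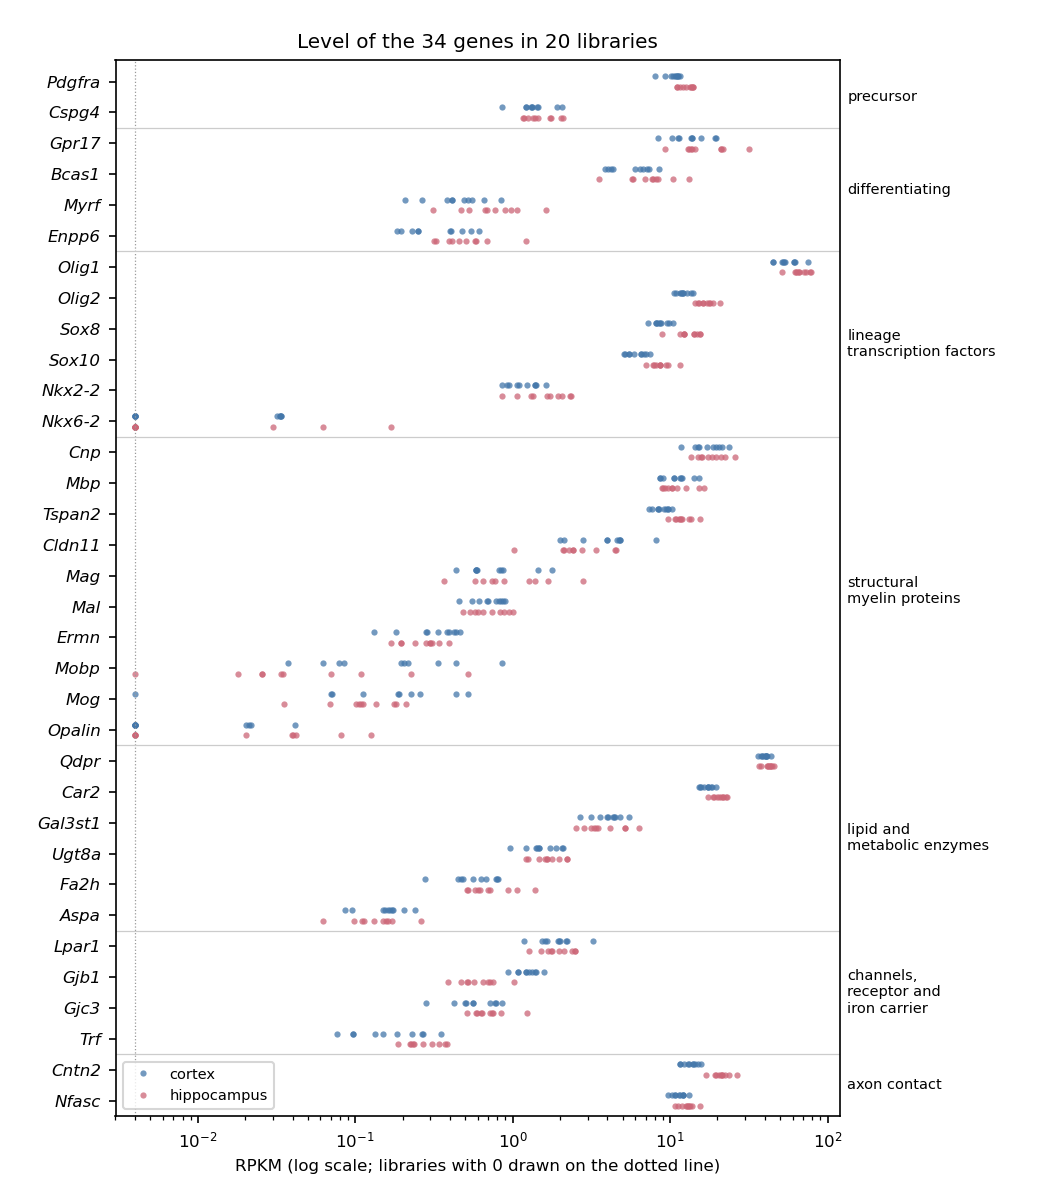
Level of each of the 34 genes in the 10 cortex (blue) and 10 hippocampus (red) libraries, as RPKM on a log axis, ordered by role and by mean level. Each point is 1 library, and libraries without a read are drawn on the dotted line at the left. Olig1 is the highest gene in both tissues and Opalin and Nkx6-2 are the lowest, with 10 and 12 of 20 libraries at 0.

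Hippocampus and cortex were then compared over all 20 libraries, which asks how far each region had come along the lineage at this age. Of the 31 genes that passed the filter on low counts, 14 passed an adjusted p under 0.05 by edgeR's quasi-likelihood test with Benjamini-Hochberg adjustment (45.2%), the test behind every adjusted p below unless another is named, against 50.9% of all 15661 genes tested. There were 12 genes higher in hippocampus (background 25.3%) and 2 lower (background 25.6%), and 7 of the 14 differed by more than 0.5 on the log2 scale (background 19.2%). The log2 fold change was above 0 for 24 of the 31, against 49.2% of all genes, with a median of 0.26 over the 31 and -0.0053 over all genes. A higher level in the hippocampus of 10 of 10 mice was found for 6 genes (background 15.2%) and a lower level in 10 of 10 for 1 (background 12.8%), and for 2 genes every hippocampus library lay above every cortex library (background 5.61%). With the mouse as a replicate block, since the tissues of a mouse were paired, 15 of 31 genes were higher and 1 was lower. Of all 15661 genes tested with the block, 4294 were higher and 8737 were called in either direction. Without the 5 hippocampus libraries that held markers of another region, 8 of 32 genes tested were higher and 4 were lower. Of all 16027 genes tested without them, 3635 were higher and 7388 were called in either direction. The median was then 0.11 over the list and -0.0096 over all genes. The astrocyte list moved in the same direction, with 6 of 7 markers higher in hippocampus and a summed level of 1286 to 2081 CPM in cortex against 2128 to 2883 CPM in hippocampus, as did 4 of 5 microglial markers. Their part in the differences of the lineage genes was not tested.

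**Figure D2:**
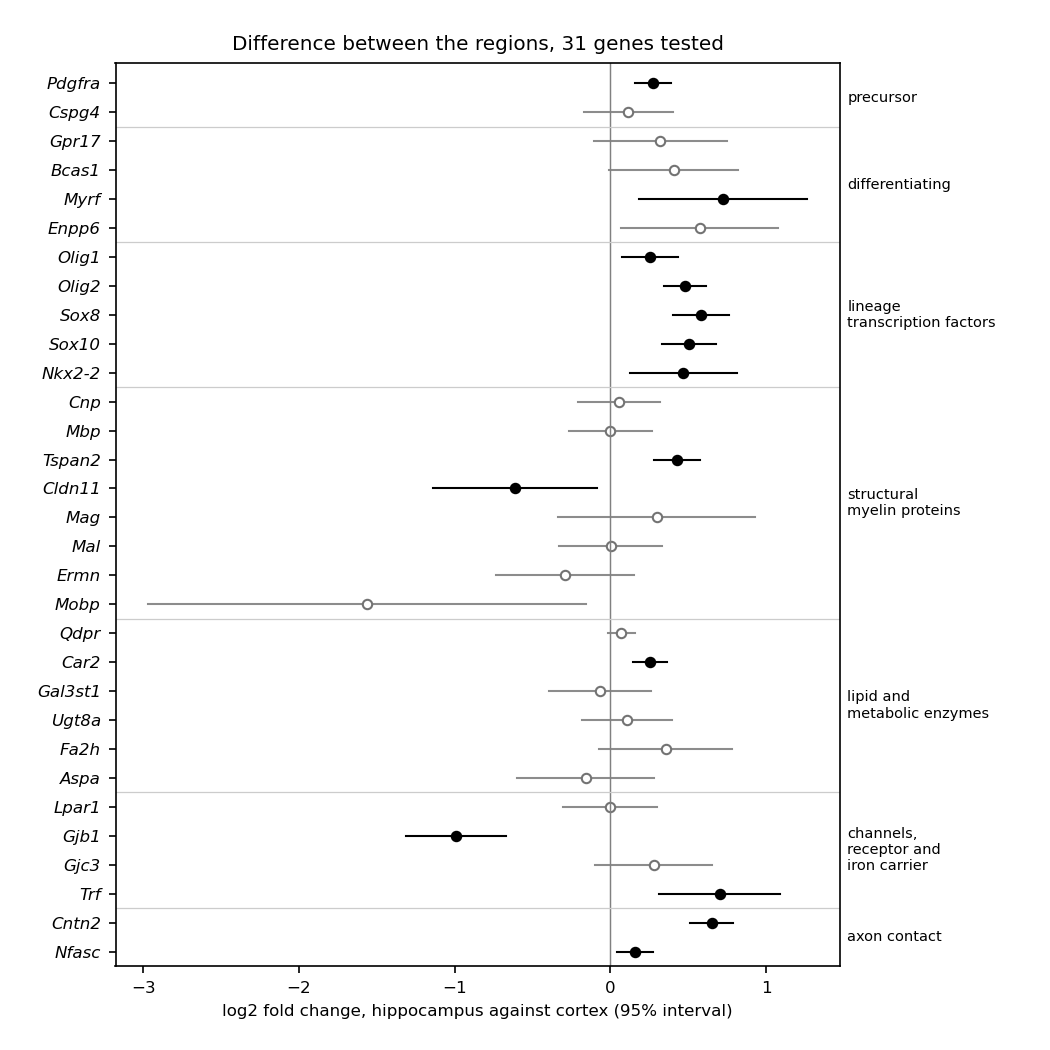
Log2 fold change of hippocampus against cortex for the 31 genes tested, by role, with 95% intervals. Filled points passed an adjusted p under 0.05 and open points did not. All 5 lineage transcription factors tested lie to the right of 0, whereas the structural myelin genes spread to both sides, from Mobp at -1.56 to Tspan2 at 0.43.

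Of the precursor genes, Pdgfra was higher in hippocampus and Cspg4 did not pass the test. Pdgfra ran from 80.8 CPM (median 108) to 115 CPM in cortex and from 110 (median 130) to 140 CPM in hippocampus. The groups overlapped between 110 and 115 CPM, but the hippocampus was the higher tissue in 10 of 10 mice. The log2 fold change was 0.27 ± 0.05 (SE, adjusted p = 0.000262). Pdgfra is also used by meningeal fibroblasts, whose summed markers were 54.4 to 304 CPM in cortex and 51.3 to 169 CPM in hippocampus, with 0 of 6 higher and 2 of 6 lower in hippocampus. Cspg4, which encodes the NG2 proteoglycan of precursors and pericytes, ran from 10.3 (median 15.9) to 24.7 CPM in cortex and from 13.8 (median 16.9) to 24.9 CPM in hippocampus, a log2 difference of 0.11 with an interval from -0.17 to 0.40. The highest values in both tissues were those of mice 1 and 6, at 22.7 to 24.9 CPM, against 10.3 to 20.8 CPM in the other 8 mice.

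All 5 lineage transcription factors that could be tested were higher in hippocampus, with a median log2 fold change of 0.48. Olig2, which specifies the lineage, ran from 26.9 (median 30.1) to 35.5 CPM in cortex and from 36.4 (median 42.4) to 52.7 CPM in hippocampus, so that the groups did not overlap (log2 fold change 0.48 ± 0.07, adjusted p = 4.02e-06). Sox8 and Sox10, related high-mobility-group factors that act together in the lineage, rose by 0.58 ± 0.09 and 0.50 ± 0.08 on the log2 scale. For Sox8 the range was 22.5 to 32.6 CPM (median 26.7) in cortex and 27.8 to 48.4 CPM (median 41.2) in hippocampus. For Sox10 it was 15.5 to 22.8 CPM (median 18.9) and 21.5 to 35.3 CPM (median 26.3). Both overlapped only at the edge of the groups and were higher in hippocampus in 10 of 10 mice. Olig1 was higher by 0.26 ± 0.09 (adjusted p = 0.0177), in 8 of 10 mice. Nkx2-2, a homeodomain factor that promotes differentiation, was higher by 0.47 ± 0.17 (adjusted p = 0.0225), in 7 of 10 mice, from 2.45 to 4.66 CPM in cortex and from 2.47 to 6.79 CPM in hippocampus. The calls of Olig1 and Nkx2-2 were the less firm ones. Without WT mouse 4 their adjusted p was 0.0570 and 0.0873, without Ube3aOE mouse 8 that of Nkx2-2 was 0.0583, and without the 5 libraries with markers of another region they were 0.0768 and 0.125. Olig2, Sox8 and Sox10 stayed past the threshold without those 5 libraries, at 0.40, 0.57 and 0.41. The kit keeps strand but the strand setting of the counting is not given in the sources used here, and 10.6% of the exon bases of Sox8 and 9.67% of those of Nkx2-2 lie opposite an exon of another gene.

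Since these factors moved together, the 250 bases before the RefSeq start of Olig2, Sox8 and Nkx2-2 are shown, together with those of the myelin gene Cnp, which did not differ between the regions. They come from the RefSeq promoter table of build GRCm38.p6, which holds 25 of the 34 genes, and are written 5′ to 3′ on the strand of the gene. Capitals mark matches, on either strand, to CTGGCAC or CTGGTAC (the motif of the factor MYRF), to ACAAAG or ACAATG (the core bound by SOX factors), or to CAGCTG or CAGATG (E-boxes, the sites of basic helix-loop-helix factors). Olig2 is at chr16:91225300-91225549 on the plus strand, Sox8 at chr17:25570687-25570936 on the minus strand, Nkx2-2 at chr2:147186403-147186652 on the minus strand and Cnp at chr11:100574689-100574938 on the plus strand.
Olig2: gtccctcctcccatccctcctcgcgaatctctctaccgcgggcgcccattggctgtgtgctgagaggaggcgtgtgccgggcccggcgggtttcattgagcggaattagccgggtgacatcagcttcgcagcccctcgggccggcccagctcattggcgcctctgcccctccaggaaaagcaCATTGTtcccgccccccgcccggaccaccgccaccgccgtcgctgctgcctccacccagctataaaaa
Sox8: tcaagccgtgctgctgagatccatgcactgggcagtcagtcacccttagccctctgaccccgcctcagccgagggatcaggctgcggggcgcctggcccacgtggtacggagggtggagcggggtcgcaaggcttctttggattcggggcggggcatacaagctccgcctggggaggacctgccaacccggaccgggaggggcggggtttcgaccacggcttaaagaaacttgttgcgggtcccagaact
Nkx2-2: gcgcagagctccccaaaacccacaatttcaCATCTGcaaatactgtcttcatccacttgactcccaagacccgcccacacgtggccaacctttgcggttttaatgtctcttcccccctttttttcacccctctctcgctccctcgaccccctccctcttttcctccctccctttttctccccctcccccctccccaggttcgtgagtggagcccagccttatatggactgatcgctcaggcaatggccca
Cnp: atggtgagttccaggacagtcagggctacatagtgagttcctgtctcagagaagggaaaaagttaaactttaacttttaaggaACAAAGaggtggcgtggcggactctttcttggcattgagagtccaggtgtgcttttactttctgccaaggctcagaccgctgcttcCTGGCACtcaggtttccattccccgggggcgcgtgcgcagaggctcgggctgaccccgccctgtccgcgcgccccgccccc

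The Olig2 sequence held 1 match, the core ACAATG on the other strand, Nkx2-2 held 1 match to CAGATG on the other strand, Cnp held CTGGCAC and ACAAAG, and Sox8 held none. In the GENCODE M21 annotation the Olig2 gene starts at 91225457 and the Cnp gene at 100574904, inside their windows. The Nkx2-2 gene reaches 147194243, so its whole window lies inside the gene. The matches of Olig2 and Nkx2-2 are thus within these annotated genes. The 25 genes have 36 promoters in the table, out of 32851 in all. CTGGCAC was in 4 of the 36, those of Cnp, Lpar1 and Mag (11.1%, against 4.19% of all promoters), and CTGGTAC in 1, that of Mog (2.78% against 1.83%). ACAAAG was in 27.8% of the 36 and 16.5% of all, and ACAATG in 19.4% and 10.7%. These shares count promoters and not genes. The 4 promoters with CTGGCAC came from 3 genes, the 10 with ACAAAG from 7 and the 7 with ACAATG from 6. Promoters of the same gene can overlap, as those of Mag did, so a site can be counted more than once. The E-boxes went in different directions, since CAGATG was in 22.2% and 14.4% and CAGCTG in 2.78%, the promoter of Aspa, and 13% of all. A match describes the letters of a window and not a bound site.

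The 4 genes of differentiating cells all had a higher fitted level in hippocampus, and 1 of them, Myrf, passed the test. Myrf, the factor that turns on the myelin program, ran from 1.76 (median 3.88) to 7.27 CPM in cortex and from 2.65 (median 6.26) to 14.0 CPM in hippocampus. The groups overlapped over most of their range, the hippocampus was higher in 8 of 10 mice, and the log2 fold change was 0.72 ± 0.26 (adjusted p = 0.0254). Without WT mouse 1, WT mouse 4, Ube3aOE mouse 7 or Ube3aOE mouse 9 in turn the adjusted p was 0.0527, 0.0961, 0.0513 and 0.0518, and without the 5 libraries with markers of another region the difference was 0.38 (adjusted p = 0.236). Gpr17, a receptor that marks the premyelinating step, stood at 43.8 to 102 CPM in cortex and 48.1 to 164 CPM in hippocampus (log2 0.32 ± 0.20, adjusted p = 0.202). Bcas1, a marker of early myelinating cells, stood at 14.6 to 31.9 and 13.4 to 49.9 CPM (0.41 ± 0.20, adjusted p = 0.0944). Enpp6, a choline phosphodiesterase of newly formed oligodendrocytes, stood at 1.17 to 3.93 and 2.03 to 7.80 CPM (0.57 ± 0.24, adjusted p = 0.0541). With the replicate block these 3 passed, at adjusted p = 0.0148, 0.0375 and 0.0262. Without the 5 libraries their differences were 0.11, 0.21 and 0.30, and none passed.

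Structural myelin genes had no common direction. The median log2 fold change of the 8 tested was 0.0011, with 1 gene higher and 1 lower in hippocampus. Mbp was at 73.4 (median 93.8) to 130 CPM in cortex and 75.7 (median 86.6) to 139 CPM in hippocampus, with the hippocampus higher in 5 of 10 mice. Its log2 difference was 0.00029 ± 0.13, with an interval from -0.27 to 0.27. Cnp was likewise at 42.5 to 86.2 and 49.6 to 93.9 CPM, a difference of 0.053 ± 0.13 with an interval from -0.21 to 0.32. Mal, a proteolipid of myelin rafts, differed by 0.0019 (interval -0.33 to 0.33). For these 3 genes, as for 12 of the 31 in all, the whole interval lay within 0.5 of no difference (61.7% of all genes). Tspan2, a tetraspanin of the early myelinating cell, was higher in hippocampus in 10 of 10 mice, from 34.7 (median 42.1) to 48.6 CPM in cortex and from 45.9 (median 55.4) to 73.5 CPM in hippocampus (0.43 ± 0.07, adjusted p = 3.87e-05).

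Cldn11, which forms the tight junctions of myelin, was the lower one, at 3.71 (median 8.02) to 15.3 CPM in cortex and 1.91 (median 4.51) to 8.46 CPM in hippocampus. It was lower in hippocampus in 8 of 10 mice, by 0.61 ± 0.25 on the log2 scale (adjusted p = 0.0491), and the replicate block gave an adjusted p of 0.118. Without the 5 libraries with markers of another region the difference was -0.88 (adjusted p = 0.0173). Its call was lost without each of WT mice 1, 2, 3 and 5 and Ube3aOE mice 7, 8 and 9 in turn (adjusted p from 0.0627 to 0.167). Cldn11 is also made by the arachnoid layer of the meninges. Its highest value was in the cortex of Ube3aOE mouse 8, the library with the highest sum of meningeal markers, 304 CPM, and this was also the highest library for Lpar1, at 13.9 CPM. The part of the meninges in the Cldn11 difference was not tested. Mobp ran from 0.258 to 5.89 CPM in cortex and from 0 to 3.59 CPM in hippocampus, a difference of -1.56 ± 0.67 that missed the threshold (adjusted p = 0.0590), with a lower value in hippocampus in 8 of 10 mice. DESeq2 and limma voom put its adjusted p at 0.0452 and 0.0499. Without Ube3aOE mouse 9 the difference was -2.19 (adjusted p = 0.00919), and without the 5 libraries it was -3.57 (adjusted p = 0.00848). Mag (0.30 ± 0.30) and Ermn (-0.29 ± 0.21), a cytoskeletal protein of mature cells, did not pass, although Ermn did without Ube3aOE mouse 8 (-0.48, adjusted p = 0.0401).

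Among the lipid and metabolic enzymes 1 of 6 differed. Car2, carbonic anhydrase, used by oligodendrocytes and other cells, was at 36.9 (median 42.2) to 47.5 CPM in cortex and 42.2 (median 50.1) to 55.9 CPM in hippocampus, higher in 9 of 10 mice (0.25 ± 0.05, adjusted p = 0.000397). The enzymes of myelin lipids did not pass. Ugt8a, which makes galactosylceramide, differed by 0.11 (interval -0.18 to 0.40), Fa2h, the fatty acid 2-hydroxylase, by 0.35 (-0.070 to 0.78), and Gal3st1, the sulfotransferase that makes sulfatide, by -0.066 (-0.39 to 0.26). Gal3st1 was lower in hippocampus without the 5 libraries (-0.37, adjusted p = 0.0383). Aspa, which frees acetate from N-acetylaspartate, differed by -0.16 (-0.60 to 0.28), and Qdpr by 0.070 (-0.016 to 0.16).

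Of the channel, receptor and iron carrier genes, 1 was lower in hippocampus, 1 was higher and 2 did not pass. Gjb1, the gap junction protein connexin 32, had the most clearly lower level in hippocampus, from 1.58 (median 2.13) to 2.71 CPM in cortex and from 0.660 (median 1.04) to 1.75 CPM in hippocampus. The groups touched only at the hippocampus of Ube3aOE mouse 7, and the level was lower in hippocampus in 10 of 10 mice (-0.99 ± 0.15, adjusted p = 1.76e-05, from 11 to 42 reads per library). Gjc3, a further connexin of the lineage, differed by 0.28 (interval -0.097 to 0.65), and Lpar1, a receptor for lysophosphatidic acid, by -0.0018 (-0.30 to 0.30). Trf, the iron carrier transferrin, was higher in hippocampus by 0.70 ± 0.19 (adjusted p = 0.00369) at 0.256 (median 0.553) to 1.16 CPM in cortex and 0.617 (median 0.838) to 1.26 CPM in hippocampus. In the Ube3aOE mice alone the Trf difference was 0.10 (adjusted p = 0.784). Its counts are partial, because 63.5% of its exon bases also belong to Gm20425 on the same strand, which had no count in any library, and reads over more than 1 gene were not counted.

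Both genes of axon contact were higher in hippocampus, and neurons make both. Cntn2, a cell adhesion molecule of the juxtaparanode, ran from 108 (median 126) to 145 CPM in cortex and from 158 (median 198) to 247 CPM in hippocampus without overlap (0.65 ± 0.07, adjusted p = 8.10e-08). Nfasc, whose products sit at the paranode and node, was higher by 0.16 ± 0.06 (adjusted p = 0.0202) in 9 of 10 mice. Without WT mouse 2 its adjusted p was 0.0575.

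**Figure D3:**
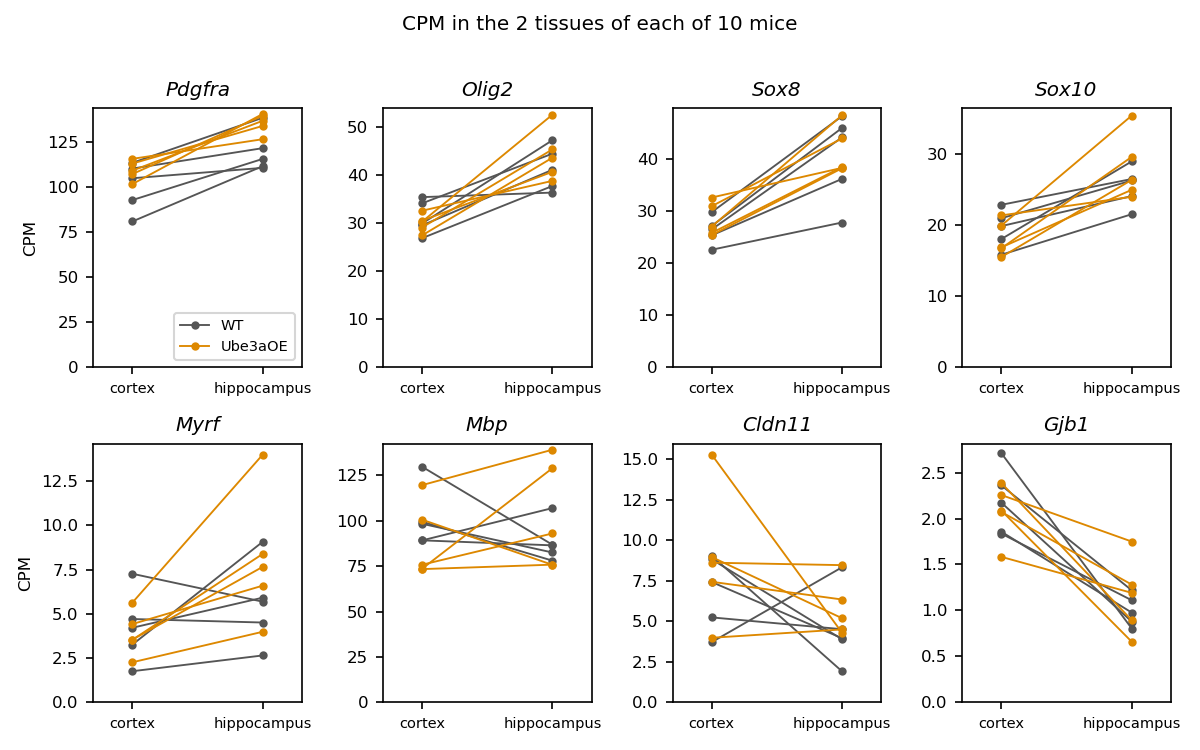
CPM of 8 genes in the cortex and hippocampus of each mouse, with a line per mouse (grey WT, orange Ube3aOE) and axes from 0. Lines for Pdgfra, Olig2, Sox8 and Sox10 rise in 10 of 10 mice, those for Gjb1 fall in 10 of 10, and those for Mbp rise in 5 of 10.

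Levels were also summed over each group, as a description without a test. The precursor sum was 11.9 ± 1.31 RPKM in cortex and 14.2 ± 1.47 RPKM in hippocampus (SD, n = 10 each), and the sum of the lineage factors was 84.1 ± 10.8 and 108 ± 12.5 RPKM, both higher in hippocampus in 10 of 10 mice. Most of the former came from Pdgfra (10.4 and 12.7 RPKM) and most of the latter from Olig1 (55.9 and 67.2 RPKM). Cspg4 by itself was higher in hippocampus in 7 of 10 mice. The sum of the structural genes, most of it from Cnp, Mbp and Tspan2, was 44.4 ± 6.38 and 46.9 ± 9.34 RPKM and higher in hippocampus in 5 of 10 mice. The differentiating sum, most of it from Gpr17, was 20.4 ± 5.43 and 26.4 ± 9.59 RPKM and higher in hippocampus in 8 of 10 mice. Differentiating RPKM per precursor RPKM came to 1.73 ± 0.471 and 1.86 ± 0.648, and was higher in hippocampus in 5 of 10 mice. Structural RPKM per precursor RPKM came to 3.78 ± 0.651 in cortex and 3.31 ± 0.616 in hippocampus, and was higher in hippocampus in 3 of 10 mice. By genotype this ratio was 4.06 ± 0.558 in WT cortex, 3.50 ± 0.668 in Ube3aOE cortex, 3.28 ± 0.605 in WT hippocampus and 3.33 ± 0.697 in Ube3aOE hippocampus (n = 5 each).

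The spread between libraries was itself patterned. In hippocampus, the library of Ube3aOE mouse 10 was the highest of 10 for 20 of the 30 genes tested in that tissue, whereas it was highest for 16.2% of all genes, and it was also the library with the highest thalamic sum. The hippocampus of WT mouse 2, the one with the highest neocortical sum, was the lowest for 18 of 30 genes, against 17.4% of all genes. Myrf was at 14.0 CPM in the former and 2.65 CPM in the latter, Mag at 11.4 and 1.48 CPM, and Bcas1 at 49.9 and 13.4 CPM. In cortex, the library of WT mouse 5 was highest for 9 of 30 genes (5.95% of all genes) and that of WT mouse 2 was lowest for 9 (19.3%). As the plot of library deviations shows, Mobp, Mag and Myrf varied most between the libraries of a tissue, and Qdpr, Car2 and Nfasc least.

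**Figure D4:**
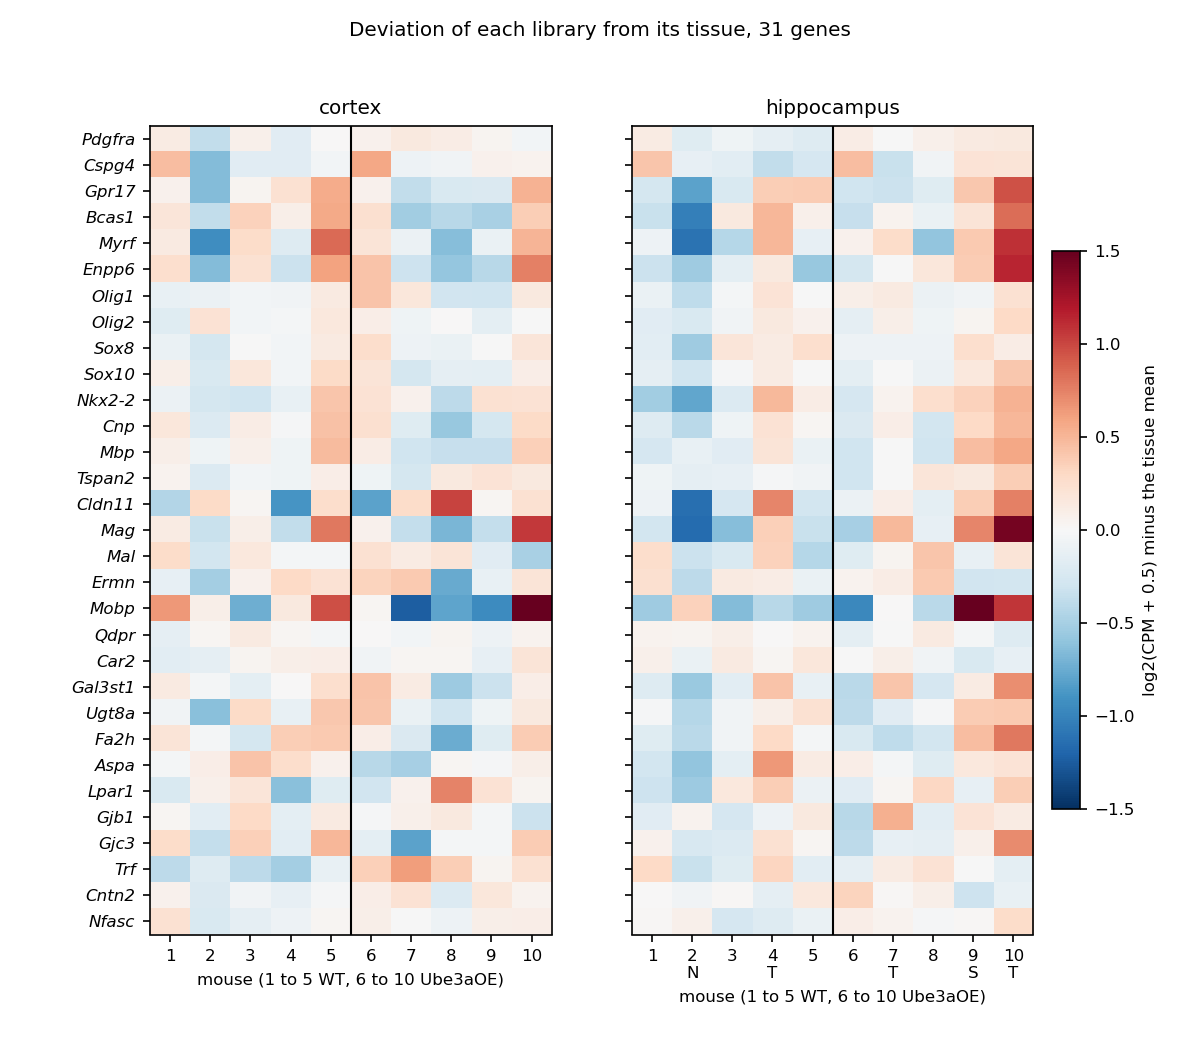
Deviation of each library from the mean of its tissue for the 31 genes tested between regions, as log2(CPM + 0.5), with colours limited to 1.5 in either direction. Letters under the hippocampus libraries mark those with over 1.5 times the median sum of thalamic (T), striatal (S) or neocortical (N) markers. In hippocampus the column of Ube3aOE mouse 10 is red (higher) for most genes and that of WT mouse 2 is blue (lower), and Mag and Mobp vary most.

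Extra Ube3a was compared with WT in each tissue over its 10 libraries, to ask whether the lineage differed by genotype. In cortex 0 of 30 genes tested passed an adjusted p under 0.05 with a log2 difference beyond 0.5 by edgeR, and Ube3a was the only gene of 14947 that did (0.00669%). At an unadjusted p under 0.05 there were 0 of 30, against 4.44% of all genes, and DESeq2 and limma voom also gave 0 at the adjusted threshold. The fitted difference was above 0 for 13 of 30 (51.4% of all genes), with a median of -0.037. All 4 differentiating genes were below 0, from -0.32 for Bcas1 to -0.035 for Enpp6, and the lowest adjusted p of any of the 30 was 0.960. For 14 of the 30, Olig1, Olig2, Sox8, Sox10 and Pdgfra among them, the interval lay within 0.5 of no difference (73.8% of all genes). Mbp differed by -0.19 (interval -0.53 to 0.14) and Mag by -0.052 (-0.88 to 0.78).

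In hippocampus 0 of 30 passed as well, by edgeR, DESeq2 and limma voom, and Ube3a was again the only gene of 15220 (0.00657%). At an unadjusted p under 0.05 there were 4 of 30, Pdgfra, Nfasc, Mag and Enpp6 (background 7.21%), each with a higher fitted level in Ube3aOE mice (background 3.71%), and their adjusted p was 0.668. Pdgfra was at 138, 111, 121, 115 and 110 CPM in WT mice 1 to 5 and at 137, 126, 134, 139 and 140 CPM in Ube3aOE mice 6 to 10, and the groups overlapped through WT mouse 1 (0.18 ± 0.07). Mag was at 3.16, 1.48, 2.35, 5.17 and 3.02 CPM in WT and at 2.64, 5.67, 3.57, 6.85 and 11.4 CPM in Ube3aOE mice (0.99 ± 0.42). Enpp6 was at 2.52, 2.1, 2.91, 3.68 and 2.03 CPM in WT and at 2.64, 3.26, 3.75, 4.42 and 7.80 CPM in Ube3aOE mice (0.72 ± 0.28). Ube3aOE mouse 10 was the highest for all 3, and Nfasc, also highest there, differed by 0.18 ± 0.08. The interval lay within 0.5 of no difference for 11 of 30 genes (69.9% of all genes).

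The fitted difference in hippocampus was above 0 for 27 of 30 genes (50.7% of all genes), with a median of 0.18 against 0.0023 for all genes. The summed thalamic markers were 129 to 276 CPM in WT and 139 to 627 CPM in Ube3aOE hippocampus. Of the 5 libraries with markers of another region, 2 were WT and 3 were Ube3aOE. The part of such markers in the genotype differences was not tested. Without those 5 libraries the difference was above 0 for 15 of 30 genes with a median of -0.0045, 0 were at an unadjusted p under 0.05, and Mag differed by 0.12, Enpp6 by 0.36 and Mbp by -0.13 in place of 0.22. That comparison holds 3 WT and 2 Ube3aOE libraries. Without Ube3aOE mouse 10 alone, 23 of 30 were above 0, with a median of 0.076.

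**Figure D5:**
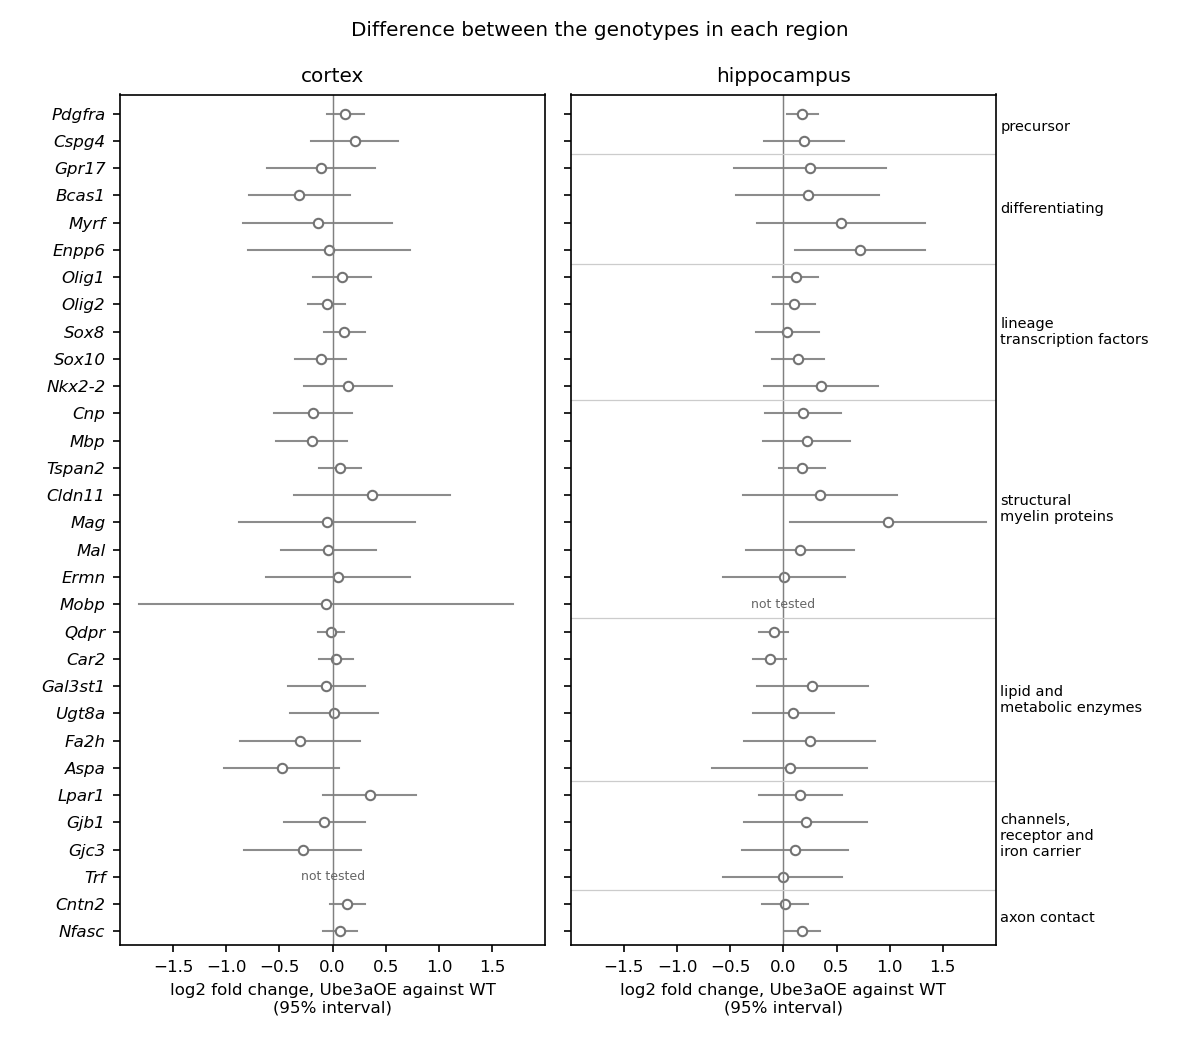
Log2 fold change of Ube3aOE against WT in cortex (left) and hippocampus (right) with 95% intervals, for the 31 genes tested between the regions, where Trf in cortex and Mobp in hippocampus were too low to test. Open points did not pass an adjusted p under 0.05, and none did. In hippocampus 27 of 30 points lie to the right of 0 and in cortex 13 of 30.

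Whether the genotype difference itself differed between the regions was tested as an interaction over all 20 libraries. None of 31 genes passed (0 of 31, and 0% of 15661), nor by DESeq2 or limma voom, and 1 was at an unadjusted p under 0.05 (background 3.77%). The fitted interaction was above 0 for 22 of 31 (50.2% of all genes), with a median of 0.20. Without the 5 hippocampus libraries with markers of another region, 18 of 32 were above 0, with a median of 0.0091. Over all 20 libraries the interaction was 1.04 ± 0.61 for Mag and 0.42 ± 0.26 for Mbp, with intervals that held 0. The single gene was Trf, at -1.21 ± 0.38, with an adjusted p of 0.997 by edgeR. Trf was at 0.319, 0.441, 0.323, 0.256 and 0.497 CPM in the cortex of WT mice and at 0.885, 1.16, 0.895, 0.609 and 0.760 CPM in that of Ube3aOE mice. A two-sided exact permutation test gave p = 0.00794 (n = 5 each), which is the smallest value that this design allows, at 4 to 18 reads per library. The same test was run on each of the 34 genes without adjustment, so this value alone does not set Trf apart. With no filter the cortex difference was 1.21 ± 0.35 (edgeR's adjusted p = 0.759). In hippocampus Trf differed by -0.0055 ± 0.26. Trf was singled out after its values were seen, was below the filter in the cortex comparison, and carries the partial count given above. Mog, Opalin and Nkx6-2, also below the filter, gave exact p values by genotype from 0.143 to 1 in cortex and from 0.444 to 0.937 in hippocampus (n = 5 each).

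Other genes of the pathway, from lists that hold no gene of the 34, were read against the share of all genes called between the regions, 25.3% higher and 25.6% lower. Of 10 further precursor genes, 3 were higher and 4 lower in hippocampus. Ptprz1, a receptor phosphatase of precursors and astrocytes, was higher (0.33 ± 0.12, adjusted p = 0.0232). Cacng4, an auxiliary subunit of AMPA receptors, and Tnr, a matrix protein, were lower (-0.37 ± 0.08 and -0.28 ± 0.10), while Xylt1 did not pass (-0.078 ± 0.08). Of 10 further genes of differentiating cells, 5 were higher and 1 lower. Fyn, a kinase that drives process outgrowth, was higher by 0.11 ± 0.03, Rras2 was lower by 0.18 ± 0.05, and Sirt2 did not pass (0.044 ± 0.06). Tcf7l2, which thalamic neurons also make, was higher by 5.29 ± 1.14, at 113 ± 187 CPM (SD, n = 10) in hippocampus. Summed thalamic markers were 276, 338 and 627 CPM in the hippocampus of WT mouse 4 and Ube3aOE mice 7 and 10. The part of these libraries in the Tcf7l2 difference was not tested.

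Of 20 further genes of mature cells, 17 could be tested, with 5 higher and 6 lower. Cryab, a small heat shock protein, was lower in hippocampus (-2.23 ± 0.13, adjusted p = 4.30e-10), Gpr37 was higher (1.13 ± 0.10) and Sept4 lower (-0.26 ± 0.09). Of 12 genes of signals that act on the lineage, 10 could be tested, with 5 higher and 3 lower. Igf1, a growth factor that favours survival and differentiation, was higher in hippocampus (0.79 ± 0.11, adjusted p = 7.90e-06), as was Notch1 (0.66 ± 0.06), a receptor that holds precursors back, whereas Pdgfa, the ligand of Pdgfra, was lower (-0.18 ± 0.07, adjusted p = 0.0382), and Lingo1, an inhibitor of differentiation, did not pass (0.0040 ± 0.04). In these 4 lists 0 genes passed by genotype in either tissue by edgeR. At an unadjusted p under 0.05 there were, in cortex, 2 of 16 genes of mature cells and 2 of 10 signals, where all genes gave 4.44%. In hippocampus they were 1 of 10 precursor genes and 1 of 10 signals, where all genes gave 7.21%.

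The tissues of a mouse gave a final comparison, of whether a mouse with a high level in cortex was also high in hippocampus. Over 10 mice Mbp gave Pearson's r = 0.032 (permutation p = 0.906, adjusted 0.906) and Spearman's rho = -0.018 (permutation p = 0.975, adjusted 0.975), and r = -0.48 without mice 5 and 10, the farthest in cortex. Pdgfra gave r = 0.58 (permutation p = 0.0891, adjusted 0.178) and rho = 0.30 (permutation p = 0.410, adjusted 0.820), and r = 0.029 without mice 2 and 4. Leaving out the farthest mice also narrows the range in cortex, which itself can lower r. As residuals from the genotype means, r was 0.43 for Pdgfra (permutation p = 0.189) and 0.17 for Mbp (permutation p = 0.623). These were the only 2 relations tested, and neither passed.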

How the data were processed

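Per the labels, RNA from the cortex and hippocampus of 10 mice was made into 20 stranded poly(A) libraries. The authors aligned the reads to GRCm38 (mm10) and deposited 1 table of raw counts per library, with HISAT2 2.1.0 and HTSeq 0.11.2 named in the submitters' processing notes. The annotation and strand setting are not given in the sources used here. The 5 lines for reads not on a gene were left out, and reads on genes made up 69.7% to 81.2% of a library.

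The 34 genes and all lists were chosen with earlier results of these data known. Each of the 34 is named, as are the 4 most abundant tested genes of each pathway list, apart from 1 that is not reported here. Counts were tested with edgeR 4.0.16 (TMM, filterByExpr, robust quasi-likelihood F test, Benjamini-Hochberg over all genes tested) in R 4.3.3. The region contrast averaged the genotypes over 20 libraries, and the genotype contrasts used the 10 libraries of a tissue and the study's border of 0.5 on the log2 scale. CPM and RPKM were computed with TMM factors and GENCODE M21 exon lengths, which held 99.1% of the identifiers. Intervals are 95%. The edgeR fits were also run on simulated counts. These were drawn independently for each library, with no effect of the mouse, so they cannot check how the pairing of tissues bears on the region test.

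Mouse numbers mark 1 animal in both tissues. Its libraries deviated from their group means together with a median correlation of 0.215 (-0.0372 to 0.248), above 0.1 in 9 of 10 mice. Alternatives were DESeq2 1.42.0, limma 3.58.1 (voom), upper quartile scaling, no filter, the replicate block, 1 genotype only, and leaving out each mouse or the cortex library of WT mouse 2. Leaving out 5 hippocampus libraries with markers of another region, or the 2 mice whose counts went against the labelled sex, was chosen after seeing the data. Replicates are separate mice. A library total of 14191093 to 16752326 limits what can be seen in genes of few reads.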

Additional observations from a re-analysis of the deposited data

Results flagged for a closer look

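In 7 of 122 groups of 5 libraries, 1 library stood apart from the other 4 by more than 0.71 of the range of the group (Dixon's 95% critical value), where chance gives about 1 in 20, or 6.1 groups. In WT cortex, mouse 5 was high for Mbp at 130 CPM (next 99.5), for Olig1 at 132 CPM (next 116) and for Nkx2-2 at 4.66 CPM (next 3.13). In Ube3aOE cortex, mouse 10 was high for Mag at 7.22 CPM (next 3.35) and for Mobp at 5.89 CPM (next 1.33). Cspg4 was high in Ube3aOE cortex in mouse 6, at 24.7 CPM (next 17.2), and in WT hippocampus in mouse 1, at 24.1 CPM (next 16.5). The other tissue of those mice was high for Cspg4 too, at 24.9 CPM in mouse 6 and 22.7 CPM in mouse 1.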

How the results depend on the processing

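The count of genes higher in hippocampus, 12, ran from 8 to 15 over the alternatives and from 9 to 14 without each mouse in turn. The count of lower genes, 2, was 1 (Gjb1) with upper quartile scaling, with no filter, with the mouse as a replicate block, in the Ube3aOE mice alone, without the cortex library of WT mouse 2 and without the 2 mice against their labelled sex. It was 4 without the 5 hippocampus libraries with markers of another region, and 1 to 2 without each mouse in turn. The block pairs the tissues of a mouse and gave 15 higher genes. The genotype contrasts compare different mice, so no block was possible there. No gene of the 34 was called by genotype or in the interaction under any alternative run. The fitted cortex difference was above 0 for 11 to 19 genes when mice were left out in turn, against 13.

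Values near 0 changed sign. For Mbp between the regions it was -0.0079 with voom, -0.0072 with the block, -0.19 in WT mice, -0.011 without the cortex library of WT mouse 2, -0.27 without the 5 libraries, and -0.069 to 0.072 without each mouse. Mal was -0.012, -0.0064, -0.081, -0.028 and -0.0045 in the same order, and -0.083 to 0.079. In WT mice and without the 5 libraries, Mag was -0.21 and -0.23 and Cnp -0.12 and -0.13 (Cnp -0.0058 to 0.13 without each mouse). In Ube3aOE mice Gal3st1 was 0.11 (-0.16 to 0.065 without each mouse) and Aspa 0.12. Lpar1 was 0.0015 with DESeq2, 0.0080 with voom, 0.025 with upper quartile scaling, 0.0051 with no filter, 0.0041 with the block, 0.11 in WT mice, 0.039 without the cortex library of WT mouse 2, 0.030 without the 2 mice, and -0.13 to 0.093 without each mouse. Mbp by genotype in hippocampus was -0.13 without the 5 libraries. The cause was not tested. With medians over a group in place of sums, the precursor level was 5.93 RPKM in cortex and 7.12 in hippocampus, the structural level 0.807 and 0.920, and their ratio 0.137 and 0.128. This ratio of medians was higher in hippocampus in 5 of 10 mice, against 3 of 10 with sums. Genes with few reads, such as Trf, Mobp, Opalin and Nkx6-2, are limited by depth.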
